A study of Mus musculus with 16 samples.

Results

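The genes described here are Cnbp, Dmpk, Mbnl1, Mbnl2 and Mbnl3, the genes linked to myotonic dystrophy, in mouse gastrocnemius muscle. They were chosen by gene name, as every non-control probe that the array design assigns to one of them, and the names were proposed with measured results of these arrays in view, the Het against WT differences in polysome loading among them. For these 5 genes those differences are therefore given below as descriptions, and where a p threshold is named with them it serves only to set a count beside that of the whole array. The rule took 5 of the 34650 gene names on the array, with 10 of its 55681 probes, and 7 of the 10 probes, from 4 of the 5 genes, were bright enough to be tested.

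Gastrocnemius muscle came from 3 wild-type mice (WT) and 3 mice heterozygous for Eif6 (Het, Eif6+/-), a ribosome biogenesis and translation initiation factor, all C57BL6 males of 8 to 16 weeks with no treatment. The labels tie the mutation to no cell type, and the bulk muscle also holds blood, vessels and connective tissue. Total RNA of the whole muscle and RNA of polysome fractions, in which an mRNA carries several ribosomes, were hybridised for all 6 mice, and RNA of monosome fractions, with a single ribosome, for WT mice 1 and 2 and Het mice 1 and 3. Each of the 16 RNA samples was read on a 1-colour Agilent array, and the number of a sample marks its mouse.

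Dmpk encodes a serine/threonine kinase of muscle, and Cnbp encodes a zinc-finger protein that binds single-stranded nucleic acids. Expanded repeats in the human copies of these genes cause the forms of myotonic dystrophy, and the RNA of the expanded repeats binds and holds the muscleblind proteins. Mbnl1, Mbnl2 and Mbnl3 encode these muscleblind proteins, RNA-binding regulators of alternative splicing, of which Mbnl1 is the main member in adult skeletal muscle.

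All values are log2 signals after quantile normalization over the 16 arrays. A ratio is the difference of 2 log2 values of the same mouse, and polysome loading is the polysome minus whole-muscle ratio. Each probe is named by the base of its own transcript accession at which it starts, and levels of different probes cannot be set against each other. In bulk muscle, fewer cells of a type and less RNA per cell cannot be told apart.

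The arrays differed in brightness and in RNA. The 75th percentile of signal ran from 12.7 to 150 and the share of probes well above background from 23.5% to 45.9%. Eif6 was lower in Het than in WT in each RNA kind with both of its probes that were well above background everywhere, for example from 8.21 to 8.40 in Het and from 8.97 to 9.66 in WT whole muscle. The polysome and monosome arrays of WT mouse 2 stood apart. Over 226 pairs of probes of the same transcript, the median upstream minus downstream signal was -0.18 and 0.31 on them and between -1.63 and -1.16 on the other 14 arrays. The arrays lay on 2 slides, and no mouse had its polysome and whole-muscle arrays on the same slide. Whether these differences had a part in the values below was not tested beyond the alternatives named.

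Stretches of 4 member probes are printed, those of Cnbp and Mbnl2 because other probes of these genes gave different values and that of Mbnl1, its only probe, beside them. Positions are those of the array design on mouse build mm9, and whether a probe lies in a coding exon or an untranslated region was not analysed here. The Cnbp probe at base 220 lies on chr6:87795760-87799040, minus strand, and spans 3281 genome bases, so it crosses a splice junction. Its accession, an Ensembl transcript, matched no RefSeq symbol here, so whether both Cnbp probes measure the same transcripts is not known. The Cnbp probe at base 1001 lies on chr6:87793726-87793785, minus strand. The capitals mark the ATG in the first and the first stop triplet of each reading frame in the other.
Cnbp base 220, probe bases 31 to 60: cactctaactgcagctATGagcagcaacga
Cnbp base 1001, probe bases 1 to 30: tggTGAaTAGggatTAAtgaatgggaagag
The Mbnl1 probe at base 5510 lies on chr3:60433601-60433660, plus strand, and holds the letters AATAAA, in capitals, at 2 places. The Mbnl2 probe at base 3588 lies on chr14:120829956-120830015, plus strand, and does not hold them.
Mbnl1 base 5510, probe bases 28 to 57: AATAAAgcgaaattgccctAATAAAacttc
Mbnl2 base 3588, probe bases 1 to 30: aatttgtggaaaggtattgtatctaacttg
AATAAA, the letters of the common polyadenylation signal, stood in 5602 of the 55681 probes (10.1%) as printed and in 2082 (3.74%) on the other strand. Of the 10 member probes, only that of Mbnl1 held it as printed and only the Dmpk probe at base 2656 on the other strand.

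Both Cnbp probes were detected on each of the 16 arrays, and their polysome loading differed between the genotypes in opposite directions. With the probe at base 1001, whole muscle measured 11.37, 11.41 and 11.42 in WT mice 1 to 3 and 11.16, 11.24 and 11.07 in Het mice 1 to 3. Polysomes measured 9.63, 9.57 and 10.04 in WT and 10.84, 11.11 and 11.51 in Het. Monosomes measured 9.41 and 7.58 in WT mice 1 and 2 and 9.79 and 9.88 in Het mice 1 and 3. Each Het polysome value thus lay above each WT polysome value, while the whole-muscle values lay slightly lower in Het. Neither pair of groups overlapped, as was the case for 21.7% of all probes in polysomes and 13.6% in whole muscle. Ranked by mean, WT whole muscle came first, then Het whole muscle and Het polysomes, which overlapped, then Het monosomes and WT polysomes, which overlapped, then WT monosomes.

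**Figure D1:**
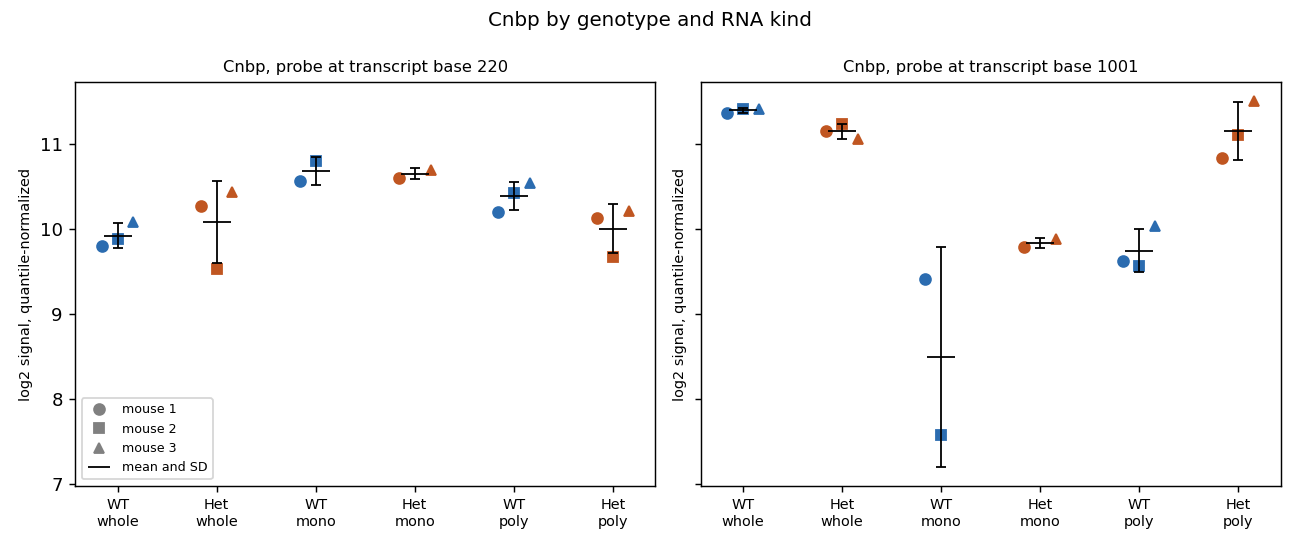
Log2 signal of the 2 Cnbp probes (left, base 220; right, base 1001) in the 6 groups, blue for WT and orange for Het, with a symbol for each mouse and the group mean with its SD. At base 1001 the 3 Het polysome arrays lie between 10.84 and 11.51 and the 3 WT polysome arrays between 9.57 and 10.04, and at base 220 these groups overlap.

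The polysome minus whole-muscle ratio of this Cnbp probe was -1.74, -1.85 and -1.38 in the 3 WT mice and -0.32, -0.13 and 0.45 in the 3 Het mice. All WT mice were thus below all Het mice. The means were -1.65 ± 0.24 (SD, n = 3) and -0.002 ± 0.40 (SD, n = 3), a Het minus WT difference of 1.65 (SE 0.33), and 1.32 with array brightness as a term. Het whole-muscle arrays were dimmer than WT ones (13.5 to 33.0 against 42.3 to 150), and Het polysome arrays were mostly brighter (63.1 to 106 against 24.1 to 66.1). In polysomes alone Het was 2.65-fold higher, and in whole muscle the difference was -0.24, which turned to 0.19 with array brightness as a term.

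The Cnbp probe at base 220 showed smaller differences in loading, in the other direction. It measured 9.80, 9.88 and 10.09 in WT and 10.27, 9.54 and 10.44 in Het whole muscle. Polysomes measured 10.21, 10.42 and 10.54 in WT and 10.13, 9.68 and 10.21 in Het, and monosomes 10.57 and 10.80 in WT and 10.61 and 10.70 in Het. The groups overlapped in each RNA kind. Its ratio was 0.47 ± 0.06 (SD, n = 3) in WT and -0.08 ± 0.19 (SD, n = 3) in Het, a difference of -0.54, with no overlap.

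The difference between the Cnbp probes, base 220 minus base 1001, was higher in WT polysomes and in monosomes than in whole muscle and Het polysomes, without overlap, and only such shifts between groups can be read from it. It ran from -1.71 to -0.62 in whole muscle of both genotypes and from -1.43 to -0.70 in Het polysomes, but from 0.50 to 0.85 in WT polysomes. Monosomes gave 0.81 and 0.82 in Het and 1.16 and 3.22 in WT. The value of 3.22 belonged to WT mouse 2. Over the 16 arrays the 2 probes had a Pearson r of -0.73, and -0.67 without WT mouse 2, as a description over arrays that share mice.

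**Figure D2:**
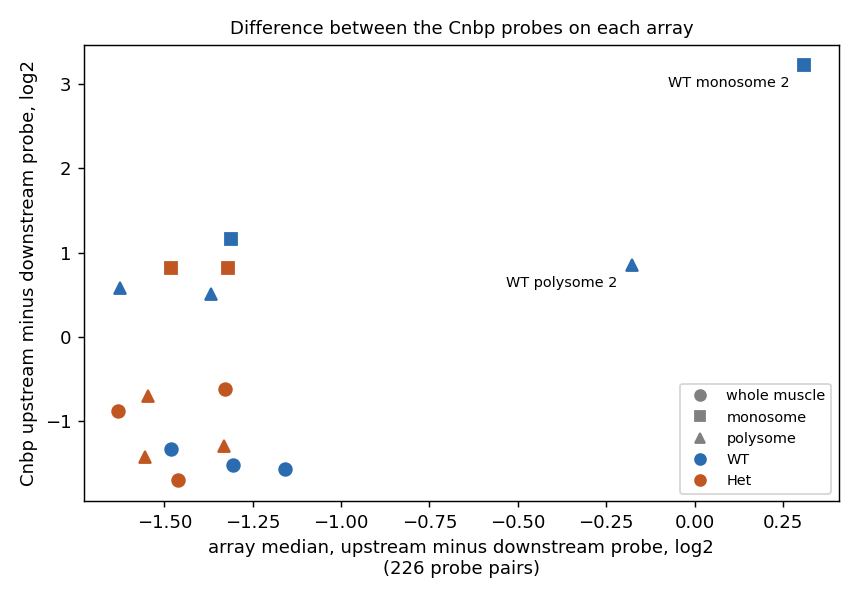
Cnbp signal at base 220 minus that at base 1001 (log2, vertical) against each array's median upstream minus downstream difference over 226 probe pairs (log2, horizontal), with a shape for each RNA kind and a colour for each genotype. WT polysome and monosome arrays of mouse 2 lie to the right of the other 14, and the 3 WT polysome arrays (0.50 to 0.85) lie above the 3 Het polysome arrays (-1.43 to -0.70).

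Across genotypes, the mean polysome minus whole-muscle ratio of the base 1001 probe was -0.83 (SE 0.17) over 6 mice, with limma's adjusted p of 0.0133. It was negative in 5 of 6 mice, and the exact two-sided sign-flip permutation test gave p = 0.125, where 0.03125 is the smallest p it can give. This mean averages genotypes that differed, and its adjusted p was 0.0611 without Het mouse 1 and 0.115, the highest over the alternatives, with the methods' own test. The base 220 probe had a mean of 0.19 (limma adjusted p = 0.341). Of the 7 member probes, 3 passed limma's adjusted p threshold of 0.05 in this comparison, against 24.6% of all 20256 probes tested. Because the genes were proposed with results of these arrays in view, p values of their polysome minus whole-muscle ratios, here and below, are descriptions.

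Dmpk RNA was higher in polysomes than in whole muscle in every mouse, and higher in polysomes than in monosomes in 2 of 4 mice. With the probe at base 2656 (chr7:19679066-19679125, plus strand), whole muscle measured 11.21, 10.85 and 10.26 in WT and 10.89, 10.46 and 10.26 in Het. Polysomes measured 11.44, 11.82 and 11.91 in WT and 11.60, 11.90 and 11.07 in Het, and monosomes 11.10 and 12.34 in WT and 11.32 and 11.44 in Het. The genotypes overlapped in each RNA kind, and only the step from Het monosomes down to WT whole muscle in the order of group means was free of overlap. The mean monosome minus whole-muscle ratio was 0.75, positive in 3 of 4 mice, and the mean polysome minus monosome ratio was -0.07.

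The Dmpk ratio was 0.23, 0.97 and 1.65 in WT and 0.71, 1.44 and 0.82 in Het. The mean of 0.97 ± 0.51 (SD, n = 6) was positive in 6 of 6 mice, as it was for 15.8% of all probes. Limma's adjusted p was 0.0194, and the exact two-sided sign-flip permutation test gave p = 0.03125, the smallest it can give, both as a description. With array brightness as a term the mean was 0.65 and limma's adjusted p 0.0810, with no filter on dim probes it was 0.0710, and leaving out any of 4 mice (WT 3, Het 1, Het 2 or Het 3) also took the adjusted p above 0.05, to between 0.0521 and 0.0592. Het minus WT was 0.04 in loading, -1.28 with array brightness as a term and -0.32 to 0.39 when single mice were left out. Its sign was kept in 8 of 15 alternatives. The other Dmpk probe, at base 1205 (chr7:19673527-19673586, plus strand), was well above background on 1 of 16 arrays and is not described further.

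**Figure D3:**
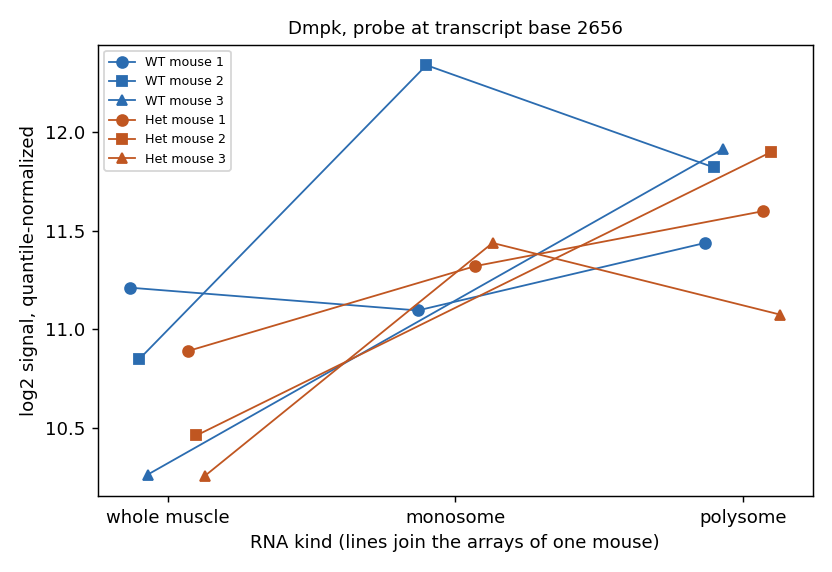
Log2 signal of Dmpk at base 2656 by RNA kind, with a line joining the arrays of a mouse, blue for WT and orange for Het. Each of the 6 lines ends higher in polysomes than it starts in whole muscle, by 0.23 to 1.65.

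Mbnl1, the main muscleblind of adult muscle, was lowest on the polysome and monosome arrays of WT mouse 2. Whole muscle measured 9.32, 10.03 and 9.76 in WT and 10.09, 9.98 and 9.89 in Het. Polysomes measured 9.24, 7.52 and 9.34 in WT and 9.80, 9.99 and 9.52 in Het, and monosomes 9.63 and 5.58 in WT and 10.13 and 10.17 in Het. The values of 7.52 and 5.58 are both of WT mouse 2. Het polysomes lay above WT polysomes without overlap, by 1.07, or by 0.48 without WT mouse 2, and whole muscle overlapped.

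The loading of Mbnl1 was -1.005 ± 1.32 (SD, n = 3) in WT and -0.21 ± 0.20 (SD, n = 3) in Het, with overlap, and the Het minus WT difference of 0.79 became 0.03 without WT mouse 2. The mean over 6 mice was -0.61 (limma adjusted p = 0.199), or -0.23 without WT mouse 2, negative in 5 of 6 mice, with an exact two-sided sign-flip permutation p of 0.0625.

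Mbnl2, the paralog that is prominent in brain, gave 3 probes that differed among themselves. The probe at base 3588 measured 6.75, 6.89 and 7.12 in WT and 6.30, 6.77 and 6.57 in Het whole muscle. Polysomes measured 4.81, 5.02 and 5.75 in WT and 5.84, 6.53 and 6.24 in Het. Monosomes measured 5.51 and 1.68 in WT, the latter, of mouse 2, not well above background, and 6.22 and 6.13 in Het. Polysomes of WT thus lay below those of Het without overlap, by 1.004, which was 0.40 with normexp and 0.47 in the authors' deposited values, and whole muscle overlapped.

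The ratio of this probe was -1.94, -1.87 and -1.37 in WT and -0.46, -0.24 and -0.33 in Het. It was negative in all 6 mice, as for 12.3% of all probes, and lower in every WT than in every Het mouse. The mean over 6 mice was -1.03 ± 0.78 (SD, n = 6), with limma's adjusted p of 0.00452 and an exact two-sided sign-flip permutation p of 0.03125, the smallest possible, both as a description. The size, though not the call, depended on the background correction, at -0.54 with normexp and -0.63 in the authors' deposited values. The Het minus WT difference of 1.38 was 0.57 and 0.66 in these.

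The brightest Mbnl2 probe, at base 2030 (chr14:120828398-120828457, plus strand), had ratios on both sides of 0. Whole muscle measured 10.04, 10.08 and 9.60 in WT and 9.85, 9.76 and 9.75 in Het. Polysomes measured 8.94, 10.29 and 9.64 in WT and 9.88, 10.26 and 10.10 in Het, and monosomes 9.65 and 8.39 in WT and 9.82 and 9.67 in Het. Whole muscle and polysomes overlapped between genotypes. The mean ratio was 0.01 (limma adjusted p = 0.989, exact two-sided sign-flip permutation p = 1), and Het minus WT in loading was 0.58, with overlap, 0.17 without WT mouse 1 and -0.13 with array brightness as a term.

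The Mbnl2 probe at base 1699 (chr14:120803865-120803924, plus strand) was dim, well above background on 13 of 16 arrays. Whole muscle measured 6.34, 5.95 and 6.20 in WT and 5.16, 4.56 and 5.43 in Het, the value of 4.56 not well above background. Polysomes measured 4.36, 6.06 and 5.12 in WT and 5.47, 5.96 and 6.03 in Het, and monosomes 4.93 and 5.11 in WT and 4.58 and 5.37 in Het. Het whole muscle was lower than WT without overlap, by 1.12 on the log2 scale (difference -1.12), which was -0.44 with normexp and -0.54 in the deposited values. Its loading was -0.99 ± 1.05 (SD, n = 3) in WT and 0.77 ± 0.56 (SD, n = 3) in Het, a difference of 1.75 without overlap, which was 0.65 with normexp and 0.83 in the deposited values. Mbnl3 was not well above background on any of the 16 arrays with either probe (chrX:48473477-48473536 and chrX:48466752-48466811, minus strand), at 1.67 to 2.83.

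**Figure D4:**
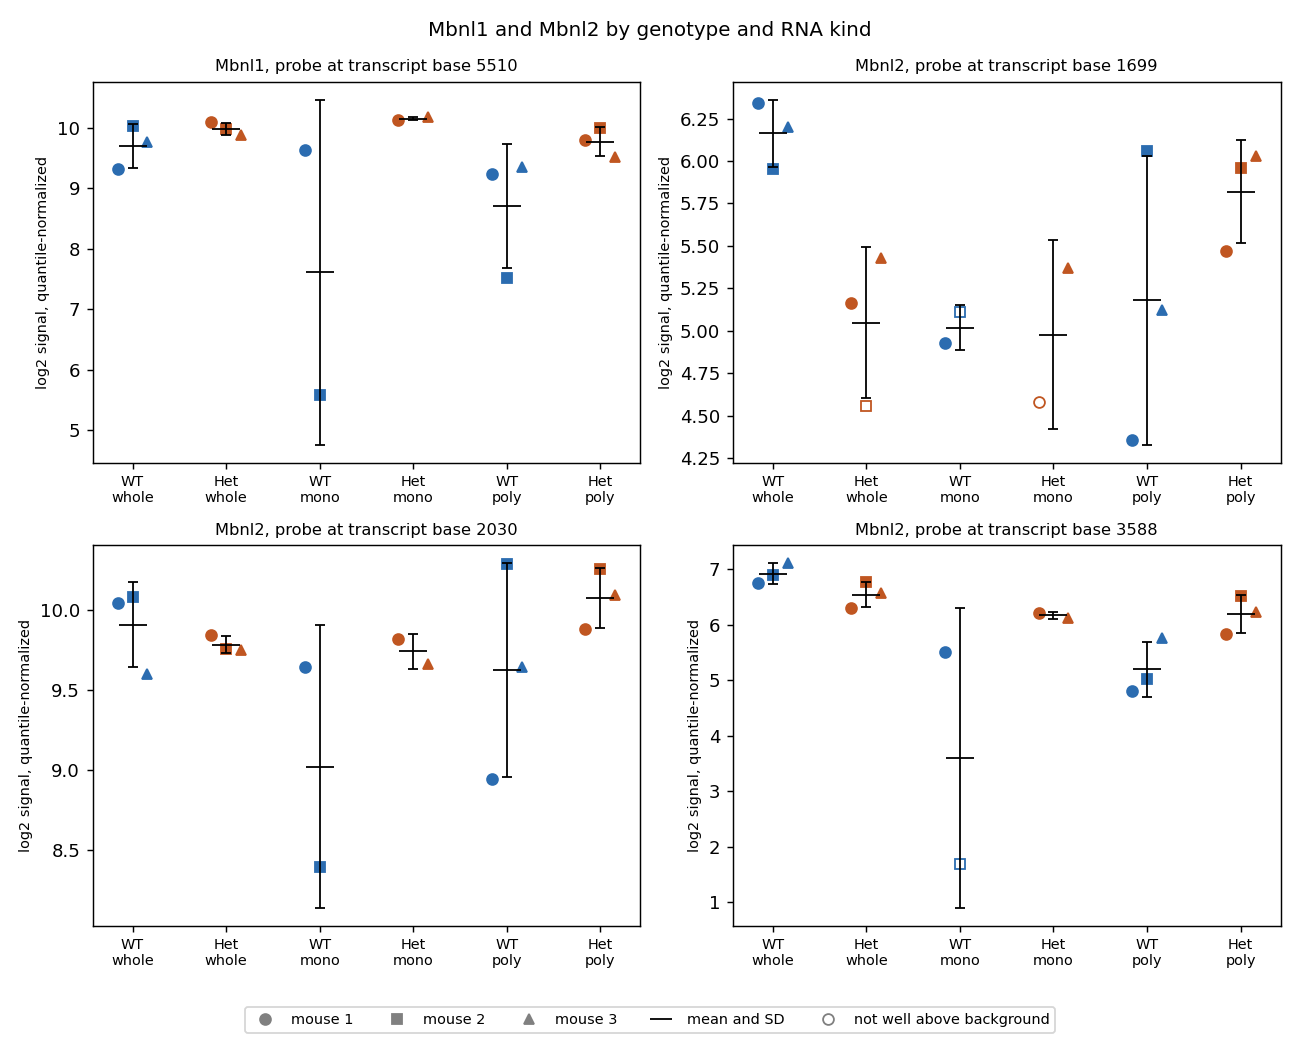
Log2 signal of the Mbnl1 probe and the 3 Mbnl2 probes in the 6 groups, blue for WT and orange for Het, with a symbol for each mouse, the group mean and its SD, and open symbols where the probe was not well above background. Each panel has its own vertical scale, and WT monosome mouse 2 is the lowest value of Mbnl1 (5.58) and of Mbnl2 at base 3588 (1.68).

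Side by side, Het minus WT in polysome loading passed an absolute log2 difference of 1 with an unadjusted limma p under 0.05 for 3 of the 7 probes, Cnbp at base 1001 and Mbnl2 at bases 1699 and 3588. All 3 were higher in Het. The same thresholds were passed by 13.9% of all probes. With normexp and in the deposited values 1 of the 7 passed, Cnbp at base 1001, against 2.89% and 4.02% of all probes, and with array brightness as a term 0 of 7, against 4.22%. In whole muscle 1 of 7 passed (Mbnl2 at base 1699, lower in Het), against 4.58% of all probes, and 0 of 7 with normexp and in the deposited values, against 0.188% and 0.242%. In polysomes 1 of 7 passed (Cnbp at base 1001, higher in Het), against 3.45%. By limma, 0 probes of the whole array passed an adjusted p of 0.05 in any of these 3 contrasts, while 3438, 1160 and 1522 had an unadjusted p under 0.05 in loading, whole muscle and polysomes. In loading this count was 0 with the methods' own test too, but 364 with normexp, 442 in the deposited values and 655 where every one of the 16 arrays had to detect a probe. Cnbp at base 1001 was among these, which is no test of it. The members were proposed with loading in view, and polysomes and whole muscle are its components, so nothing is read from these counts or from a member's place in them. Loading did not overlap between genotypes for 4 of the 7 probes, against 25.3% of all probes.

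**Figure D5:**
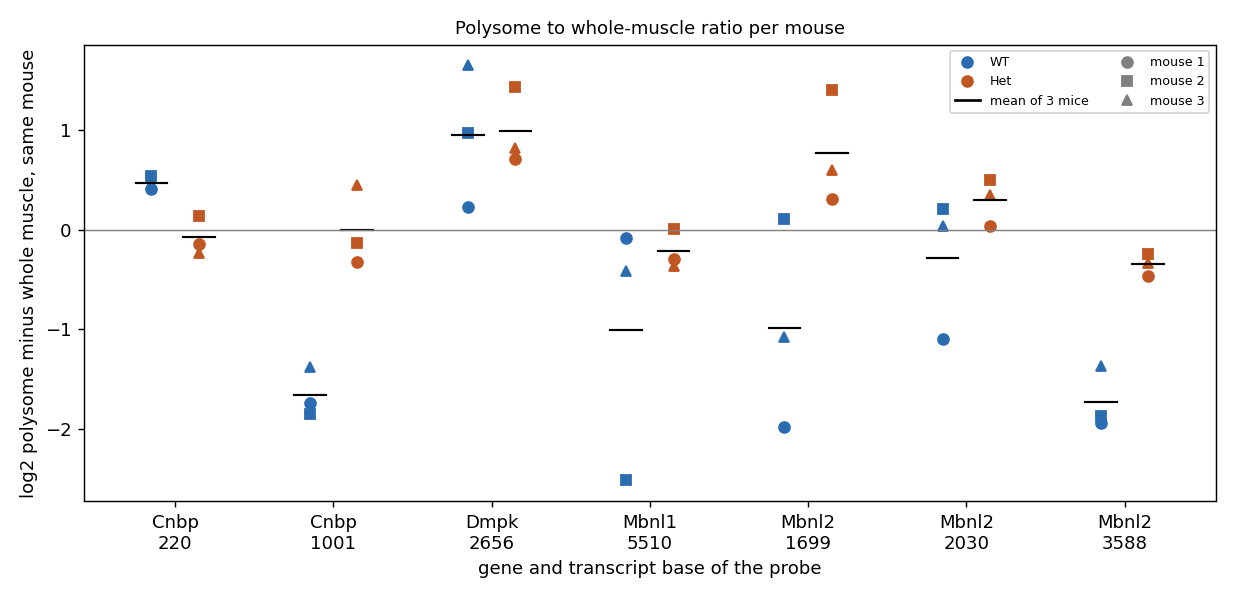
Polysome minus whole-muscle log2 ratio of each mouse for the 7 member probes, blue for WT and orange for Het, with a bar at the mean of 3 mice. WT and Het mice are apart for Cnbp at bases 220 and 1001 and for Mbnl2 at bases 1699 and 3588, and Dmpk is above 0 in all 6 mice.

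Blood cell markers also differed between these groups. Their summed signal, over 6 of 6 markers, was 16.3 to 17.5 in WT polysomes, 15.3 to 15.7 in Het polysomes and 15.1 to 15.7 in whole muscle of both genotypes. In Het loading 3 of the 6 were lower past the thresholds above, against 13.9% of all probes, while Hbb-b1 differed the other way (0.89). Hbb-b1 alone was lower in Het whole muscle past the thresholds (-1.57), against 4.58% of all probes. In Het polysomes 4 of the 6 were lower past them, against 3.45%. Fibroblast markers, 6 of 6, were 15.8 in all WT polysomes and 15.2 to 15.4 in Het polysomes. Muscle fibre markers, 11 of 11, were 20.2 to 20.3 in polysomes of both genotypes, and 20.0 in Het and 19.5 to 19.6 in WT monosomes. Of the 11, 3 (Acta1, Ckm and Casq1) were higher in Het loading past the thresholds, against 13.9% of all probes. The loading differences of Myh4 (-0.27), Tnni2 (-0.21) and Tnnc2 (-0.26) went the other way, and those of the other fibre markers were positive. The list median was 0.34 beside 0.16 for all probes. Immune cell markers, 7 of 8 tested, were 9.64 to 12.04 in WT and 9.66 to 9.999 in Het whole muscle, with 3 lower in Het past the thresholds. In whole muscle 1 of 5 endothelial and 1 of 4 nerve markers were lower past them too, against 4.58% of all probes. Adipocyte markers, 5 of 6 tested, were 13.1 to 14.5 in polysomes and 11.8 to 12.9 in whole muscle, and 3 of them were called higher in polysomes, as was Dmpk. So were 3 of 6 fibroblast, 2 of 7 immune cell, 1 of 5 endothelial, 1 of 5 satellite cell, 1 of 4 nerve and 0 of 6 blood cell markers. Of all probes, 24.6% were called in this comparison, in either direction. Of the 11 muscle fibre markers, 0 were called higher by limma and 1 lower. In Het loading 1 of 5 adipocyte markers was lower past the thresholds, and 1 of 5 endothelial and 1 of 5 satellite cell markers were higher. Of the fibroblast, immune cell and nerve markers 0 passed in loading. The part of all these markers in the member values was not tested.

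Monosome comparisons rested on 4 mice. Limma called 0 of 20282 probes (0%) in monosomes against whole muscle, with 4652 at an unadjusted p under 0.05, while the methods' own test called 403 and the fit without the mouse as a block 14. It called 0 of 20283 (0%) in polysomes against monosomes, with 8340 at an unadjusted p under 0.05 and 409 by the methods' own test. No member probe was called in either. Cnbp at base 1001 had a mean monosome minus whole-muscle ratio of -2.08 (limma adjusted p = 0.179), and its polysome minus monosome ratio was 1.22 (limma adjusted p = 0.0823), positive in 4 of 4 mice. Without WT mouse 2 it was 0.78 (adjusted p = 0.0610) and without WT mouse 1 it was 1.67 (0.0168). The adjusted p fell below 0.05 under 5 of 13 alternatives, among them normexp (0.0346) and the deposited values (0.0262), and was up to 0.99997 under the others. The base 220 probe ran the other way, at 0.57 and -0.42, negative in 4 of 4 mice for the latter, with limma's adjusted p of 0.180, and 0.0367 with normexp and 0.0489 in the deposited values.

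In monosomes alone, limma called 0.499% of 20244 probes between Het and WT and 0 of the 7 member probes. An unadjusted p under 0.05 was found for 3 of the 7, and for 6681 of the 20244 probes. The Het minus WT value was 2.58 for Mbnl2 at base 3588 (limma adjusted p = 0.0967), 2.55 for Mbnl1 (0.109) and 1.34 for Cnbp at base 1001 (0.101). That of Mbnl2 at base 3588, of which 1 of 2 WT arrays was not well above background, was 0.70 with normexp and 0.91 in the deposited values. The genotypes did not overlap for 4 of the 7 probes, these 3 and Mbnl2 at base 2030, against 50.4% of all probes. Within the slides the Mbnl1 difference was 0.50 and 4.59, that of Mbnl2 0.71 and 4.45 and that of Cnbp 0.38 and 2.30, the larger each time on the slide of WT mouse 2. Without WT mouse 2 they were 0.52, 0.66 and 0.42, while leaving out WT mouse 1 leaves only the array of WT mouse 2 that stood apart as WT monosomes.

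Genes around the members were taken from 5 fixed lists, whose counts in polysomes against whole muscle stand beside 24.6% called of all probes. Of 18 splicing targets misregulated in myotonic dystrophy, all tested, 1 rose and 1 fell in polysomes against whole muscle, with a median of 0.17 beside 0.10 for all probes. Bin1, a membrane-tubule protein, rose by 0.84 (limma adjusted p = 0.00884), and Atp2a1, the fast-fibre calcium pump of the sarcoplasmic reticulum, had a mean ratio of -1.68 (0.0188), from -4.86 to -1.82 in WT and from -0.73 to 0.11 in Het. Among RNA-binding partners and CELF factors, 16 of 19 were tested, 1 rose (the splicing factor Rbfox2, 0.64) and 2 fell (Stau1, a double-stranded RNA-binding protein, -0.98, and the splicing repressor Hnrnpa1, -0.86). The mean of Stau1, well above background on 11 of 16 arrays, averages -2.44 to -0.90 in WT and -0.42 to 0.29 in Het, and that of Rbfox2 0.85 to 1.36 in WT and -0.11 to 0.33 in Het. Of 7 tested kinases and partners of Dmpk, 1 rose (Hspb2, a small heat shock protein that binds the kinase, 0.69), and 0 of 4 tested neighbours of the repeat loci passed.

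Of 7 RNA-binding proteins related to Cnbp, 1 rose and 1 fell. Ssb, the La protein, had a ratio of 1.33 (limma adjusted p = 0.00251) and Ybx1, a cold-shock domain mRNA-binding protein, of -2.27 (0.000684). In Het against WT loading, given as a description, 13.9% of all probes passed the thresholds. Of the lists, 1 of 18 splicing targets passed as higher, 1 of 16 RNA-binding partners as higher and 2 as lower, and 1 of 7 relatives of Cnbp as higher and 1 as lower. Among kinases and partners of Dmpk 0 of 7 passed, and among repeat neighbours 0 of 4. Atp2a1 differed by 2.79, Stau1 by 1.88 and Dhx36, a helicase of G-quadruplexes, by 1.37, while Zcchc13, a paralog of Cnbp, differed by -1.98 and Rbfox2 by -1.002. Celf3 also passed, but was well above background on 4 of 16 arrays. Zcchc13 was higher in Het whole muscle, by 1.38, and Atp2a1 and Stau1 in Het polysomes, by 1.62 and 1.43. These passed the thresholds, as did 4.58% of all probes in whole muscle and 3.45% in polysomes. In the 3 monosome comparisons 0 genes of the 5 lists were called by limma.

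Genes whose signal ran most like the members' over the 16 arrays, among 9153 probes well above background on all, are given as a description over arrays that share mice and RNA differences. For Cnbp at base 1001 they were LOC102632770 (r = 0.973), an unnamed intergenic locus of the array design (0.967) and 1110004F10Rik (0.965). For Dmpk they were Klhdc3 (0.938), Serinc2 (0.927) and Fkbp8 (0.925). For Mbnl1 they were Golga4 (0.994), Cdv3 (0.989) and Nudt4 (0.987), and for Mbnl2 at base 2030 LOC102643165 (0.889), Glud1 (0.855) and Rab10 (0.850).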

How the data were processed

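RNA was measured on 16 Agilent 1-colour mouse arrays, 3 WT and 3 Het of whole muscle and of polysomes and 2 of each of monosomes, grouped by the sample titles. The scanner files deposited by the authors hold spot intensity made with Feature Extraction 11.0.1.1, and the deposited table of the series holds log2 values, quantile-normalized by the authors, with column medians of 5.68 to 5.69. That table ranked probes as the raw median signals do and served as an alternative. No column of per-sample values was left unused (0).

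The background-corrected intensity was taken as log2, flagged outlier spots were left out, spots of a probe were averaged and the 16 arrays quantile-normalized, so that each value is relative to the other RNA on its array and total RNA amounts per fraction are lost. The 20307 probes detected (well above background) throughout at least 1 of the 6 groups were tested, of which up to 63 dropped out for a missing value. Array precision is limited by the number of arrays. Fits used limma 3.58.1 in R 4.3.3 (lmFit, eBayes, Benjamini-Hochberg over all probes), on within-mouse ratios for RNA kinds. Called means an adjusted p under 0.05, and, for Het against WT in loading, whole muscle and polysomes, an absolute log2 difference above 1 with an unadjusted p under 0.05. Scripts were tested on simulated data.

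The design text ties each number to a mouse. Polysome and whole-muscle deviations of the same mouse correlated at 0.047 to 0.48. The members and lists were chosen with earlier results of these data known. All member probes are described, and the brightest stands for its gene. Of each list up to 4 called genes a comparison are named, those of largest difference, and for likeness the 3 genes of highest r. RefSeq symbols matched 9 of 10 member probes. Alternatives were other scaling, normexp (offset 50), the deposited table, other filters, slide or brightness as a term, the replicate block, the methods' test, other probes and leaving out each mouse.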

Additional observations from a re-analysis of the deposited data

Results flagged for a closer look

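In 4 cases each mouse of a genotype moved in the same direction and each mouse of the other genotype in the opposite direction, and all are genes of the fixed lists. The 18 probes looked at were the 7 member probes and those of list genes that had passed a threshold, for some that of Het against WT, so their share cannot be set against that of all probes. Over all tested probes such a pattern was found in 7.12% for polysomes against whole muscle (2 cases here), in 9.27% for polysomes against monosomes (2 cases) and in 12.8% for monosomes against whole muscle (0 cases), the last pair with 2 mice a genotype. The polysome minus monosome ratio of Atp2a1 was 1.28 and 1.66 in Het and -0.50 and -0.90 in WT, a Het minus WT difference of 2.18. That of Hnrnpa1 was -0.08 and -0.16 in Het and 0.20 and 1.23 in WT, a difference of -0.83, with 1 of the 2 WT monosome arrays not well above background. The polysome minus whole-muscle ratio of Zcchc13 was -1.15, -2.07 and -1.02 in Het and 0.99, 0.65 and 0.06 in WT, a difference of -1.98. That of Celf3, well above background on 4 of 16 arrays, was -0.52, -2.16 and -1.36 in Het and 0.998, 0.998 and 0.36 in WT, a difference of -2.13. Since 0 of 3 Het polysome and 0 of 3 WT whole-muscle arrays of Celf3 were well above background, its directions are not measured. For Zcchc13 and Celf3 limma's adjusted p of the difference was 0.1101. For Atp2a1 and Hnrnpa1 the difference was not tested.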

How the results depend on the processing

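The counts of called probes over the whole array moved with the processing. Leaving out single mice gave 2328 to 5533 calls for polysomes against whole muscle (4993 in all mice), 0 to 7493 for monosomes against whole muscle, 0 to 10087 for polysomes against monosomes, 2 to 10780 for Het against WT in monosomes, and for Het against WT 2231 to 3090 in loading, 559 to 2023 in whole muscle and 333 to 1945 in polysomes. Without WT mouse 1 the 3 monosome counts were 7493, 10087 and 10780, and without WT mouse 2 polysomes against monosomes gave 6810. Het against WT in monosomes gave 33 without WT mouse 2, 2 without Het mouse 1 and 6 without Het mouse 3. Polysomes against whole muscle gave 2375, 2328 and 3041 without Het 1, Het 3 and WT 3, whole muscle 559 and 2023 without WT 1 and WT 2, and polysomes 1945, 1194 and 333 without WT 1, WT 3 and Het 2. For polysomes against whole muscle, no filter gave 3100 and brightness as a term 2398. For polysomes against monosomes, 75th percentile scaling gave 5105, normexp 5044, the deposited values 5297, the filter on all 16 arrays 4717, slide as a term 6808 and the methods' t-test 409. For Het against WT in monosomes these gave 0 (75th percentile), 681 (normexp), 820 (deposited), 322 (no filter), 40 (brightness) and 0 (methods' t-test), and the methods' t-test gave 403 for monosomes against whole muscle. For Het against WT, normexp, the deposited table, the filter on all 16 arrays and the methods' t-test gave 585, 814, 1119 and 1727 in loading, 38, 49, 170 and 433 in whole muscle, and 174, 211, 255 and 416 in polysomes. Brightness gave 855 in loading, no filter 2076 in whole muscle and 1078 in polysomes, the 12 arrays normalized together 1137 in polysomes, and the fits within slides 399 (whole muscle, slide 1), 178 and 346 (polysomes). The replicate block gave 1115 in whole muscle and 819 in polysomes, and without the block monosomes against whole muscle gave 14. Within a slide, monosomes had 1 array of each genotype and no test.

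Of the members' values under alternatives, 59 of 756 had the other sign. In the comparisons called by adjusted p, 19 values passed the threshold newly and 8 lost it. In Het against WT for loading, whole muscle and polysomes, 6 of 351 passed the thresholds newly, all in polysomes, and 18 lost them. Of these, Mbnl2 at base 1699 lost its loading call with normexp, the deposited values, brightness, the methods' t-test and without WT mouse 1, WT mouse 3 or Het mouse 2, and its whole-muscle call with normexp, the deposited values, brightness, within either slide and without Het mouse 2. Mbnl2 at base 3588 lost its loading call with normexp, the deposited values and brightness. Cnbp at base 1001 lost that in loading with brightness and that in polysomes within slide 1. Cnbp at base 220 in place of base 1001 gave 0.19, 0.57, -0.42 and -0.031 in the tested comparisons, -0.54 in loading and -0.38 in polysomes. Mbnl2 at base 1699 in place of base 2030 gave -0.11 for polysomes against whole muscle and -0.042 in monosomes, and base 3588 gave -1.03.

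The cause of the other turns was not tested. In Het against WT, brightness as a term turned Cnbp at base 1001 (0.19) and Mbnl2 at base 3588 (0.39) in whole muscle, and Mbnl2 at base 2030 (-0.13) and Dmpk (-1.28) in loading. Cnbp at base 220 in monosomes (-0.03 Het minus WT) was 0.19 with 75th percentile scaling, 0.0020 with normexp, 0.010 in the deposited values, 0.036 within slide 1 and -0.15 to 0.083 when mice were left out. Dmpk was 0.15 with slide as a term and -0.28 to 0.15 without single mice in polysomes against monosomes, and 0.23 within slide 1 and -0.96 to 0.28 without single mice in monosomes. Mbnl1 in polysomes against monosomes was -0.088 with normexp, -0.15 in the deposited values, -0.44 with slide and -0.33 with brightness as a term, and -0.44 to 0.72 without single mice, and in monosomes against whole muscle it was -2.14 to 0.24. Mbnl2 at base 1699 was -0.38 to 0.14 in polysomes against whole muscle and -0.44 to 0.35 in monosomes without single mice, and 0.26 within slide 2. Mbnl2 at base 2030 in polysomes against whole muscle was -0.11 with 75th percentile scaling, -0.015 in the deposited values, -0.17 with brightness and -0.12 to 0.21 without single mice. In polysomes against monosomes it was -0.23 with slide as a term and -0.23 to 1.07 without single mice, and base 3588 was -0.42 with slide as a term and -0.42 to 1.60 without single mice.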
